A study of Mus musculus with 6 samples.

Results

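Crybg2, Tbx3os2, Hspb7 and Rcan2 were 4 genes of dural lymphatic endothelial cells (LECs) whose counts were far higher in AAV-VEGF-C than in AAV-CTRL libraries, although the AAV-VEGF-C libraries were the smaller ones. They were chosen by this contrast, from the very counts given here, because their counts rose strongly and in part ran in the reverse order of the library totals. Their levels and fold changes are therefore a description and carry no test. They are 4 of the 55401 genes in the tables, and all 4 were among the 17459 genes that passed the filter on low counts. Crybg2, Hspb7 and Tbx3os2 held so few counts in AAV-CTRL that they passed it through their AAV-VEGF-C counts.

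RNA was sequenced from LECs sorted from mouse dura mater as live cells positive for CD31, Podoplanin and Lyve-1 and negative for CD45. Wild-type male C57BL/6J mice were injected into the cisterna magna at 4 weeks of age with an adeno-associated virus of serotype 9. AAV-VEGF-C carried full-length mouse VEGF-C, and AAV-CTRL carried VEGFR-3 ectodomains fused to Ig that do not bind this ligand, so the control animals received a vector with a transgene too. Each group had 3 libraries, numbered 1 to 3 after the repeat of the experiment, and each library came from 10 to 12 pooled meninges. The reads assigned to genes summed to 564475, 1435008 and 3261935 in AAV-VEGF-C 1, 2 and 3, and to 6530269, 7858091 and 12399498 in AAV-CTRL 1, 2 and 3. The paper gives a far larger number of sequenced reads per sample, so depth here means the total of reads assigned to genes. No AAV-VEGF-C library had as large a total as any AAV-CTRL library, so depth in this sense and treatment cannot be told apart. All 8 lymphatic markers examined (Lyve1, Pdpn, Pecam1, Prox1, Flt4, Mmrn1, Ccl21a and Reln) had counts in every library. Levels are given in CPM (each count as a share of the library total, per 1e6). Summed, the markers reached 2961, 1083 and 698 CPM in AAV-VEGF-C 1, 2 and 3. In AAV-CTRL 1, 2 and 3 they reached 2181, 1452 and 1360 CPM. Within each group this sum fell from library 1 to 3. That was also the order of Rcan2, Crybg2 and Tbx3os2, and of Hspb7 within AAV-VEGF-C. In AAV-CTRL not every marker followed the sum. There Pecam1 rose, at 77.9, 181 and 383 CPM in libraries 1, 2 and 3. Lyve1 (58.65, 129 and 61.1 CPM) and Pdpn (61.9, 44.8 and 45.2 CPM) did not fall at every step, while the other markers did. A link between the sum and the 4 genes was not tested. Genes of fibroblasts were also abundant and summed to 8919 to 20645 CPM in AAV-CTRL and 5773 to 10810 CPM in AAV-VEGF-C.

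The 4 genes belong to unrelated families. Rcan2 encodes a regulator of calcineurin, the calcium-activated phosphatase that sends NFAT transcription factors into the nucleus, a pathway that shapes lymphatic valves and acts downstream of VEGF receptors in endothelium. Crybg2 encodes a protein with the crystallin fold known from lens proteins, and Hspb7 encodes a small heat shock protein best known from heart and skeletal muscle, where such chaperones keep damaged proteins from clumping. Tbx3os2 is a long noncoding RNA made from the strand opposite to its neighbour Tbx3, a T-box transcription factor of limb, heart and mammary development.

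In the GENCODE M21 annotation of GRCm38, Rcan2 lies on the plus strand at chr17:43801351-44039516 and has 7 transcripts of 536 to 3313 bases. Crybg2 lies on the plus strand at chr4:134060815-134092504, with 13 transcripts of 265 to 5578 bases. Hspb7 lies on the plus strand at chr4:141420779-141425311 and has a single transcript of 2769 bases. Tbx3os2 lies on the minus strand at chr5:119685095-119691218 and has a single transcript of 1345 bases in 3 exons. The longest Crybg2 and Hspb7 transcripts were rich in G and C, at 59.4% and 57.5%, above 93.9% and 88.4% of the tested genes with annotation. Tbx3os2 stood at 53.2% and Rcan2 at 45.9%, the latter above 30.7% of genes, so high GC content was not a feature of all 4.

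The sequences before the start sites are shown because genes that move together are often compared by their promoters. Each line gives the 250 bases before a RefSeq start on GRCm38.p6, 5′ to 3′ on the gene's strand, and the capitals mark GGAAA or its reverse complement TTTCC, the core letters bound by NFAT factors. The windows are chr17:43801102-43801351 (plus) for Rcan2, the first of its 3 listed starts, chr4:134068202-134068451 (plus) for Crybg2, chr4:141420529-141420778 (plus) for Hspb7 and chr5:119691219-119691468 (minus) for Tbx3os2. The Crybg2 window lies before an internal start, inside an intron of the longest GENCODE transcript, and the last base of the Rcan2 window is annotated as exon. Which start the reads came from cannot be read from counts per gene.
Rcan2: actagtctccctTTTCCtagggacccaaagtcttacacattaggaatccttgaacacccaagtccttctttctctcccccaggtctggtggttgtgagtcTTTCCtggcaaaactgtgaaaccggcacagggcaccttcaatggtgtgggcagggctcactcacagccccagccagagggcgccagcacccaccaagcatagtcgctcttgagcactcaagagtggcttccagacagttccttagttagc
Crybg2: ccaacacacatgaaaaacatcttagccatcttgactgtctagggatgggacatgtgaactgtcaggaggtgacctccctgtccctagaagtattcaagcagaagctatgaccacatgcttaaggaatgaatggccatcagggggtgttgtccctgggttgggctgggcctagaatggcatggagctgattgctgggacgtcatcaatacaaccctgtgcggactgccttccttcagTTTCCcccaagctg
Hspb7: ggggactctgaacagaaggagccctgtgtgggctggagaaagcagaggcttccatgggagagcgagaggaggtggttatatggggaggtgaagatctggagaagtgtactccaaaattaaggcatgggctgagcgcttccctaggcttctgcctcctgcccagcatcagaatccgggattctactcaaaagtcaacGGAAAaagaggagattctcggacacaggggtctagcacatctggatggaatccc
Tbx3os2: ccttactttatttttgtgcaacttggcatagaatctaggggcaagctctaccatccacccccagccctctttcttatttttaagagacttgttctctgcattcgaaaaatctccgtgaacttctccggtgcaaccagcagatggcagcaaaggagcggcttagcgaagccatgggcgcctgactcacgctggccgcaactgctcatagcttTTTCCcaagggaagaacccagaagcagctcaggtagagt

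The NFAT core was present 2 times in the Rcan2 window and 1 time in each of the other 3 printed windows, and 55.6% of all 32817 RefSeq windows of this length held it on either strand. The E-box CANNTG was found in the Crybg2, Hspb7 and Tbx3os2 windows and in 66.2% of all windows. None of the printed windows held the GC box GGGCGG (32.7% of all windows), the CCAAT box in the letters CCAAT (33.8%), the TATA box TATAAA (12.4%), the T-box core AGGTGT (11.8%), the heat shock core GAANNTTC (6.69%) or the cyclic AMP element TGACGTCA (1.55%). Matches of different motifs did not overlap in these windows. The windows before the other 2 Rcan2 starts, which are not printed, held no NFAT core, and the second of the 3 had 1 CCAAT box, 1 E-box and a GC content of 68%. The 4 printed windows had a GC content of 50.4% to 54%, where the median of all windows was 52.4%, and held 2 CG pairs for Crybg2, 3 for Rcan2, 5 for Hspb7 and 8 for Tbx3os2, where the median was 6.

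Rcan2 was the most abundant of the 4 genes in every library, by count and by length-corrected level. Its estimated counts were 11309, 6705 and 3087 in AAV-VEGF-C 1, 2 and 3 and 971, 598 and 265 in AAV-CTRL 1, 2 and 3. The groups did not overlap, and the smallest library of all held the most Rcan2 counts. Scaled to the library total these were 20034, 4672 and 946 CPM in AAV-VEGF-C and 149, 76.1 and 21.4 CPM in AAV-CTRL. Rcan2 alone thus took 2.0% of the counts of AAV-VEGF-C 1. Among all genes, its level in TPM, a share of transcripts that also corrects for length, ranked 15 in AAV-VEGF-C 1, 63 in AAV-VEGF-C 2 and 217 in AAV-VEGF-C 3. It ranked 1431, 3184 and 8238 in AAV-CTRL 1, 2 and 3. Rcan2 was therefore well detected in the control cells too, unlike the other 3 genes. The log2 fold change was 6.99 with a standard error (SE) of 1.54 in the edgeR fit, the lowest of the 4.

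Crybg2 had 1387, 365 and 117 estimated counts in AAV-VEGF-C 1, 2 and 3 against 17, 8 and 0 in AAV-CTRL 1, 2 and 3. These amounted to 2457, 254 and 35.9 CPM in AAV-VEGF-C and to 2.60 and 1.02 CPM in AAV-CTRL 1 and 2. A count of 0 in AAV-CTRL 3 allows up to 0.242 CPM, taking 3 counts as the floor. Crybg2 thus had few or no counts in the control libraries, while in AAV-VEGF-C 1 it ranked 83 of all genes by TPM, in AAV-VEGF-C 2 707 and in AAV-VEGF-C 3 6086. The log2 fold change of 9.97 (SE 2.22) was the highest of the 17459 genes tested.

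Hspb7 had 318, 151 and 27 estimated counts in AAV-VEGF-C 1, 2 and 3 and 13, 5 and 13 in AAV-CTRL 1, 2 and 3. The matching levels were 563, 105 and 8.28 CPM and 1.99, 0.636 and 1.05 CPM. Hspb7 was the gene with the most even AAV-CTRL levels, and its lowest AAV-VEGF-C level was still 4.16 times the highest of them. The log2 fold change was 7.89 (SE 1.64).

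Tbx3os2 was the rarest of the 4 genes by count. It had 111, 17 and 13 estimated counts in AAV-VEGF-C 1, 2 and 3 and 7, 1 and 0 in AAV-CTRL 1, 2 and 3, or 197, 11.8 and 3.99 CPM against 1.07, 0.127 and 0 CPM, the last with the same floor as for Crybg2. With 13 counts in AAV-VEGF-C 3, the 95% Wilson interval ran from 2.33 to 6.82 CPM, which covers counting error only. The log2 fold change was 7.92 (SE 2.0).

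**Figure D1:**
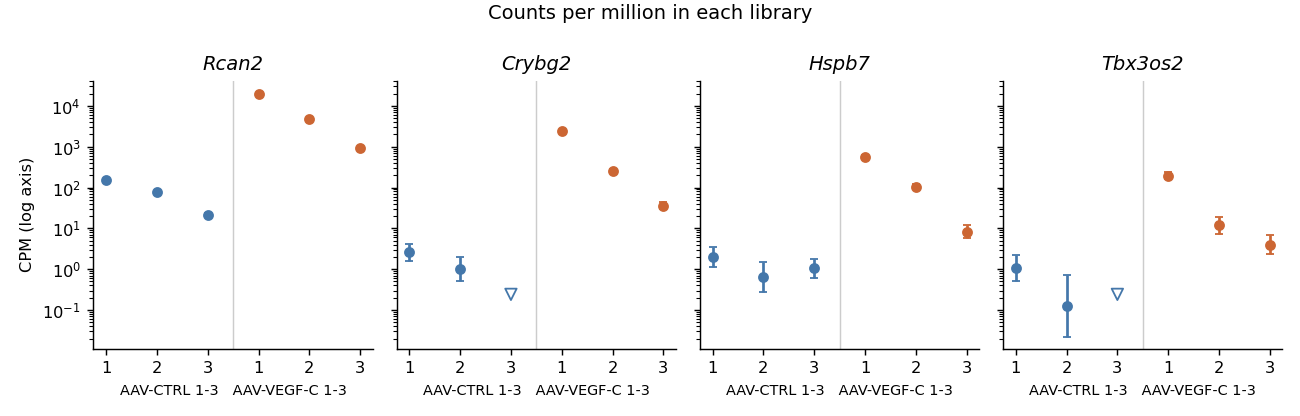
CPM (log axis) of the 4 genes in AAV-CTRL 1 to 3 (blue) and AAV-VEGF-C 1 to 3 (orange), with 95% Wilson intervals for counting error; open triangles mark a count of 0 drawn at the floor of 3 counts. Every AAV-VEGF-C point lies above every AAV-CTRL point, and AAV-VEGF-C 1 is highest for each gene.

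The size of the difference varied between experiments. Rcan2 in CPM was 135-fold higher in AAV-VEGF-C than in AAV-CTRL in experiment 1, 61.4-fold in experiment 2 and 44.3-fold in experiment 3. Crybg2 was 944-fold and 250-fold higher in experiments 1 and 2 and at least 148-fold higher in experiment 3. Hspb7 was 283-fold, 166-fold and 7.89-fold higher, and Tbx3os2 183-fold, 93.1-fold and at least 16.5-fold higher. Each gene had its largest measured fold in experiment 1, but the bounds for Crybg2 and Tbx3os2 do not limit how large the fold was in experiment 3. The Hspb7 and Tbx3os2 folds of experiment 2 rest on 5 counts and 1 count in AAV-CTRL 2. Within AAV-VEGF-C, the highest CPM exceeded the lowest 21.2-fold for Rcan2, 68.5-fold for Crybg2, 68.0-fold for Hspb7 and 49.3-fold for Tbx3os2. Without AAV-VEGF-C 1 the log2 fold changes were 5.06 for Rcan2, 6.99 for Crybg2, 5.55 for Hspb7 and 4.33 for Tbx3os2, each lower than with all 6 libraries. Without AAV-CTRL 1 they were 7.77, 11.27, 8.40 and 10.21, and without AAV-CTRL 3 the values of Rcan2, Crybg2 and Tbx3os2 were 6.33, 9.08 and 6.90.

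The counts did not scale with depth. For Rcan2, Crybg2 and Tbx3os2 the unscaled count fell at every step from the smallest library to the largest, over all 6 libraries. Only 43 of the 17459 genes tested (0.246%) had counts in that order, and these 3 were chosen in part for it. Hspb7 kept the order over the AAV-VEGF-C libraries alone, as did the other 3 genes and 0.842% of genes tested. In its AAV-CTRL libraries Hspb7 was lowest in number 2. Unscaled counts in every AAV-VEGF-C library exceeded those in every AAV-CTRL library for all 4 genes and for 5.36% of genes tested. After scaling to CPM this held for all 4 and for 20.6%. In the edgeR fit, 10.5% of genes were called higher in AAV-VEGF-C at an adjusted p under 0.05 and 0.659% lower, and all 4 were among the former. Since the genes were selected on this contrast, nothing is read from these shares. Even unscaled, the lowest AAV-VEGF-C count exceeded the highest AAV-CTRL count 3.18-fold for Rcan2, 6.88-fold for Crybg2, 2.08-fold for Hspb7 and 1.86-fold for Tbx3os2.

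**Figure D2:**
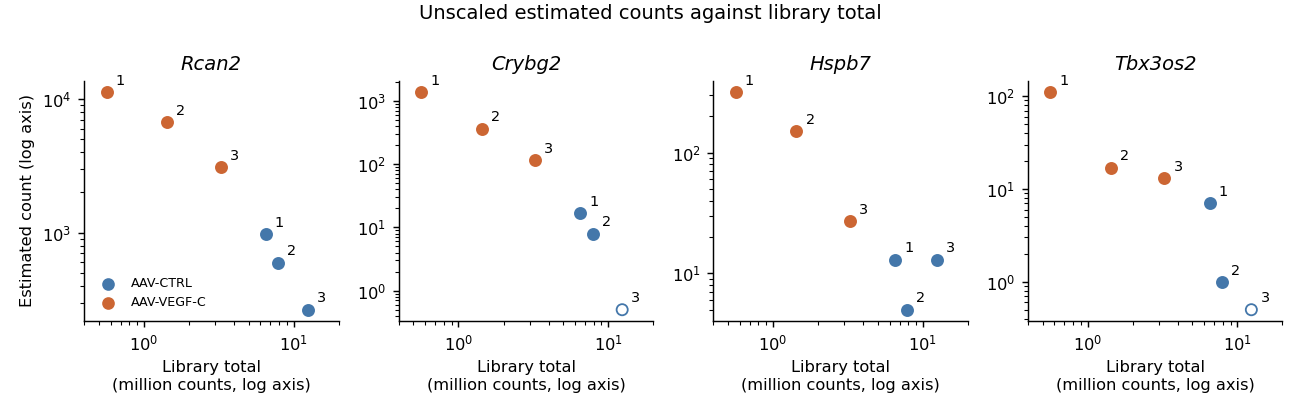
Unscaled estimated counts of each gene (log axis) against the library total (log axis), numbered by experiment; open circles are counts of 0, drawn at 0.5. Rcan2, Crybg2 and Tbx3os2 descend from the smallest library, at 564475 counts, to the largest, at 12399498.

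After random draws had brought each library to 564430 counts, Rcan2 kept 11309, 2606 and 515 counts in AAV-VEGF-C and 72, 43 and 11 in AAV-CTRL. Crybg2 kept 1387, 148 and 21 against 0, 1 and 0. For Hspb7 the drawn counts were 318, 63 and 7 against 2, 1 and 1, and for Tbx3os2 111, 5 and 4 against 1, 0 and 0. At equal depth the groups did not overlap, and Hspb7 and Tbx3os2 rested on fewer than 10 counts in AAV-VEGF-C 3. Within AAV-VEGF-C, all 4 genes had at equal depth the order they had in the full libraries. Both outcomes were largely fixed in advance. The unscaled counts already had this separation and this order, and the draws took more counts from the larger libraries. The drawn counts are therefore no check on the part of depth.

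Other genes with counts in the full reverse order were examined to place the 3. Of these 43, 53.5% were protein-coding, where 82.4% of the tested genes with annotation were. Their log2 fold changes ranged from 4.50 to 9.97 with a median of 6.63, and 22 averaged 5 TPM or more. Rcan2 was the most abundant, at a mean of 417 TPM over the 6 libraries. Rasd2, a Ras-related small GTPase best known from the striatum, followed with 48.2 TPM and Gm830 with 42.8 TPM. Crybg2 came next at 42.2 TPM, and Chrm1, a muscarinic acetylcholine receptor, stood at 30.3 TPM. Tbx3os2 stood at place 18 with 6.45 TPM. The forebrain transcription factors Lhx5 and Sp9 and the olfactory and vomeronasal receptors Olfr545 and Vmn2r22 were also in this set, and these examples were named after their values were seen. Rasd2, for instance, was counted 1500, 749 and 391 times in AAV-VEGF-C and 108, 105 and 52 times in AAV-CTRL.

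Where tested genes that averaged 5 TPM or more and did not overlap in CPM were ordered by log2 fold change, Crybg2 was at place 1 of 469. Fgf5, a secreted growth factor, followed at 9.81 (SE 1.99), with counts of 141, 73 and 13 in AAV-VEGF-C and 3, 0 and 0 in AAV-CTRL. Tbx3os2 and Hspb7 held places 12 and 13, between the noncoding RNAs Gm13490 (7.94) and Gm40264 (7.86). Rcan2 was at place 22, between Gm49151 (7.13) and Gm49972 (6.99). With SEs of 1.36 to 2.22, the order of these neighbours is not resolved.

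The profiles of the 4 genes over the 6 libraries were compared on centred log2 CPM with those of the 14055 tested genes that averaged 1 TPM or more, by the root mean square (RMS) difference. Closest to Rcan2 were the antisense RNA Gm45470 (RMS 0.21), the noncoding RNA Gm50140 (0.24) and the vomeronasal receptor Vmn2r22 (0.26). Closest to Hspb7 were Inhba (0.41), which encodes the activin A subunit, Gm49151 (0.43) and Pnkd (0.45). For Inhba the counts were 622, 316 and 82.8 in AAV-VEGF-C and 45.7, 23 and 52 in AAV-CTRL. Tbx3os2 was most like Tmem239 (0.43), Gm40264 (0.48) and Gm26878 (0.54). Crybg2 had no profile as near, since its closest were D630023F18Rik (0.89), Olfr1191-ps1 (1.12) and Gm26789 (1.20). Among themselves, Rcan2 and Tbx3os2 were the nearest pair (0.71) and Crybg2 and Hspb7 the farthest (1.89). The points of each profile share libraries and depth, and with few counts in AAV-CTRL the profiles of low genes are imprecise.

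The proportions between the 4 genes changed from library to library. Rcan2 counts were 8.15 times those of Crybg2 in AAV-VEGF-C 1, 18.4 times in AAV-VEGF-C 2 and 26.4 times in AAV-VEGF-C 3. In AAV-CTRL 1 and 2 they were 57.1 and 74.7 times, on 17 and 8 Crybg2 counts. The share of Crybg2 beside Rcan2 was thus largest in AAV-VEGF-C 1, and the 4 genes did not move by a common factor.

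The levels were set beside 2142 genes from families with no known role in endothelium (keratin-associated proteins, beta-defensins and receptors for odours, pheromones and bitter taste). Summed over these families the level was 298, 183 and 165 CPM in AAV-CTRL 1, 2 and 3 and 7185, 3836 and 2986 CPM in AAV-VEGF-C 1, 2 and 3. The groups did not overlap, AAV-VEGF-C being higher, and within AAV-VEGF-C it ran in the same order as the 4 genes. Rcan2, at 1704, 601 and 144 TPM in AAV-VEGF-C and 28.8, 16.4 and 6.99 TPM in AAV-CTRL, was above every one of these genes in all 6 libraries. In AAV-VEGF-C 1 the highest of them reached 31.1 TPM, below Crybg2 (211 TPM), Hspb7 (41.0 TPM) and Tbx3os2 (33.4 TPM). In AAV-VEGF-C 2 none reached Crybg2 at 35.6 TPM, 2 reached Hspb7 at 13.3 TPM and 17 reached Tbx3os2 at 3.43 TPM. In AAV-VEGF-C 3, 4 reached Crybg2 at 5.70 TPM, 65 Hspb7 at 1.21 TPM and 51 Tbx3os2 at 1.35 TPM. Hspb7 and Tbx3os2 in AAV-VEGF-C 3 were below the 99th percentile of these families, 1.86 TPM. The part of this background in the rises was not tested.

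**Figure D3:**
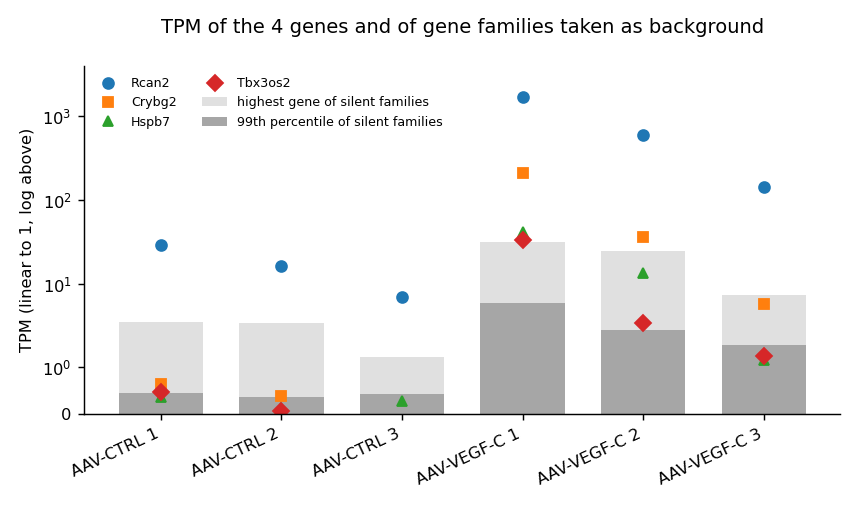
TPM of the 4 genes (symbols; values of 0 not drawn) in each library, with the 99th percentile (dark bars) and the highest gene (light bars) of 2142 genes of families not known from endothelium; the axis is linear up to 1 and logarithmic above. Rcan2 lies above the bars throughout, while Hspb7 and Tbx3os2 lie inside them in AAV-VEGF-C 3.

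Markers of other cells were read because Hspb7 is known from muscle and Rcan2 from brain. The 20 striated muscle genes listed summed to 25.7 to 53.1 CPM in AAV-CTRL and 88.4 to 175 CPM in AAV-VEGF-C, and 4 of the 10 tested rose (Acta1, Tnnt2, Ryr1 and Casq1). Over all tested genes 10.5% were called higher, and among those with a mean of at most 2.01 TPM, where these 4 lay, 26.3%. Of the 4, Tnnt2, cardiac troponin T, was counted 22, 21 and 33 times in AAV-VEGF-C and 3, 3 and 2 times in AAV-CTRL. In AAV-VEGF-C 1, 15 of the 20 had a count, and Mylpf, Myh6, Tnnt3, Tnnc2 and Myl2 were at 0. Hspb7 was at 563 CPM in AAV-VEGF-C 1 and at 8.28 CPM in AAV-VEGF-C 3. The muscle sum was 157 CPM in the former and 175 CPM in the latter. The 8 neuronal genes summed to 10.1 to 37.2 CPM in AAV-CTRL and 67.6 to 112 CPM in AAV-VEGF-C, and 4 of the 7 tested rose (Rbfox3, Tubb3, Gad1 and Stmn2), beside the same shares of 10.5% and 26.3%; Stmn2 alone lay above that mean level, at 2.58 TPM. In AAV-VEGF-C 1, Rcan2 was at 20034 CPM and the 8 neuronal genes together at 112 CPM. Marker sums set no limit on what other cells could add to a single gene. For glia the sums were 16.2 to 65.2 and 51.4 to 77.9 CPM with 1 of 6 tested higher (Sox10), and for epithelium 28.0 to 41.3 and 21.4 to 76.5 CPM with none of 5 called. Smooth muscle and pericyte genes (95.4 to 608 and 80.0 to 281 CPM) and leukocyte genes (136 to 3522 and 112 to 3444 CPM) had no call, and of 6 fibroblast genes Dcn fell. In both groups the leukocyte sum was far lower in experiment 1. It was 136, 3522 and 2159 CPM in AAV-CTRL 1, 2 and 3 and 112, 3444 and 1783 CPM in AAV-VEGF-C 1, 2 and 3. Fewer cells of a type and less RNA per cell cannot be told apart in bulk samples. The part of other cells in these differences was not tested.

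No tested gene of the calcineurin pathway around Rcan2 was called. Of 18 listed genes, 17 were tested and none passed in either direction, where 10.5% of all tested genes were called higher, 0.659% lower, and 2.33% higher among those with a mean above 2.01 TPM. The median log2 fold change of the list was -0.33, and that of all tested genes was -0.0037. The calmodulin genes Calm2 (-0.81) and Calm3 (-0.90), which encode the calcium sensor that activates calcineurin, were the most abundant of the list. Rcan1, the paralog known as a calcineurin and NFAT target, was counted 10, 86 and 132 times in AAV-VEGF-C and 153, 740 and 577 times in AAV-CTRL. Its log2 fold change was -0.33 (SE 0.55, edgeR adjusted p = 0.745), and that of Rcan3 was -0.63 (SE 0.41, edgeR adjusted p = 0.351). Scaled to the library total, Rcan1 stood at 17.7, 59.9 and 40.5 CPM in AAV-VEGF-C and 23.4, 94.2 and 46.5 CPM in AAV-CTRL, so the groups overlapped. The catalytic subunits Ppp3ca, Ppp3cb and Ppp3cc had values of -0.11, -0.50 and -0.21, and the NFAT factors Nfatc1, Nfatc2, Nfatc3 and Nfatc4 of -0.08, 0.41, -0.94 and -0.04. The highest value was 2.22 for Akap5, an anchoring protein of calcineurin (SE 0.68, edgeR adjusted p = 0.0806).

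Of the 16 other crystallins of the beta-gamma class, only 4 had enough counts to be tested and none was called, beside the same shares over all genes. The lens genes of this class are silent in most tissues, and Crygd had no count in any library. Crybg1, which shares the fold with Crybg2, was counted 13, 26 and 92 times in AAV-VEGF-C and 85, 206 and 247 times in AAV-CTRL, and its log2 fold change was 0.39 (SE 0.37, adjusted p = 0.533 in edgeR). Crybg3 had -0.47 (SE 0.30), Crybb3 1.22 (SE 0.81) and Crybb1 1.14 (SE 1.05). Scaled to the library total, Crybg1 stood at 23.0, 18.1 and 28.2 CPM in AAV-VEGF-C and 13.02, 26.2 and 19.9 CPM in AAV-CTRL, so the groups overlapped.

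Among small heat shock proteins and their partners, 10 of 14 were tested and none was called, again beside these shares, with a median log2 fold change of -0.69. Hspb1, Hspb8 and Cryab, the chaperones of this family found in many tissues, each had a value of -1.02 (SE 0.48, 0.33 and 0.58). Hspb6 had -0.54 and Hspb2 0.18. The co-chaperone Bag3 stood at -0.71, the ubiquitin ligase Stub1 at -0.67 and Hspa8, the constitutive Hsp70, at -0.81. Hsf1, the transcription factor of the heat shock response, was at -0.04 (SE 0.29).

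The T-box list was the only one of the 4 lists with calls. It holds 18 genes, counting Tbx3os1, an antisense noncoding RNA of the Tbx3 locus and not itself a T-box gene. Of the 18, 15 were tested, 9 were called higher, where 10.5% of all tested genes were, and none lower. The median log2 fold change was 3.78. The called genes were Tbx4 (6.16), Tbx10 (6.11), Tbx5 (5.32), Tbx21 (4.85), Tbx20 (4.49), Tbx3os1 (4.48), Tbr1 (3.95), Eomes (3.78) and Tbx6 (2.81). Among them are regulators of limb (Tbx4, Tbx5), heart (Tbx5, Tbx20), mesoderm (Tbx6), T cell (Tbx21, Eomes) and cortical (Tbr1) development. All 9 were scarce, with a mean of at most 2.01 TPM, and in AAV-VEGF-C 1 for example Tbx5 had 17 counts and Tbx21 2. Of all tested genes up to that mean level, 26.3% were called higher, and of those above it 2.33%. The most abundant of the list, Tbx15 (-1.29), Mga (-0.67) and Tbx1 (0.16), were not called. No gene of the list was called without AAV-CTRL 2, AAV-CTRL 3, AAV-VEGF-C 2 or AAV-VEGF-C 3. Without AAV-VEGF-C 1 there was 1 called, and without AAV-CTRL 1 there were 5. The counts of the called genes did not all run like those of Tbx3os2: Tbx5, with 17, 37 and 43 counts in AAV-VEGF-C 1, 2 and 3, had more counts in the larger libraries.

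**Figure D4:**
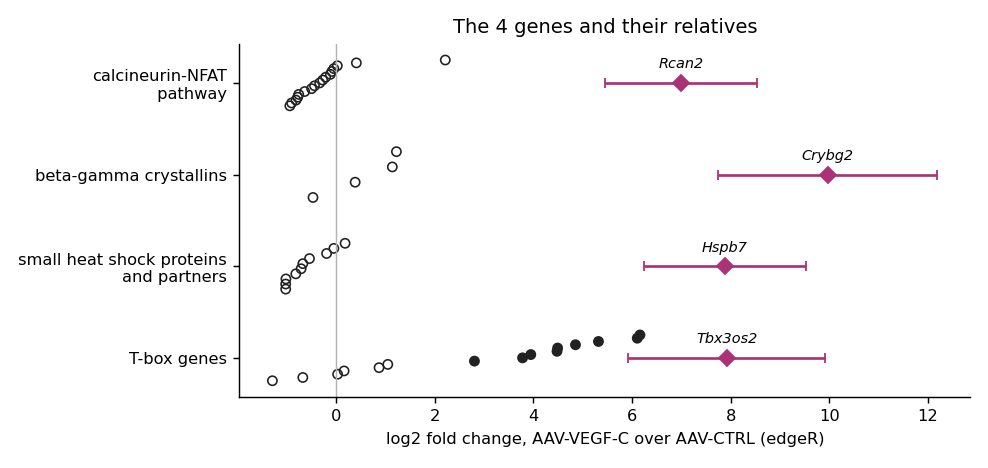
log2 fold change of AAV-VEGF-C over AAV-CTRL for Rcan2, Crybg2, Hspb7 and Tbx3os2 (diamonds, bars show the SE) and for the tested genes of their families (circles; filled where the edgeR adjusted p was under 0.05). Only the T-box list has filled circles, 9 of 15, and the other 3 lists lie between -1.02 and 2.22.

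The genes beside the 4 loci were read within 50 kb. Tbx3, whose 3′ end lies 371 bases from that of Tbx3os2, was counted 6, 10 and 31 times in AAV-VEGF-C and 4, 40 and 140 times in AAV-CTRL, and its log2 fold change was 0.87 (SE 0.84, adjusted p = 0.540 in edgeR). Tbx3 counts ran with the library total within each group, while those of Tbx3os2 ran against it. Tbx3os1, another noncoding RNA of the locus, 13730 bases away, was called higher at 4.48 (SE 1.04, edgeR adjusted p = 0.0328), with 7, 8 and 22 counts in AAV-VEGF-C and 0, 7 and 3 in AAV-CTRL. Its counts within AAV-VEGF-C were also larger in the larger libraries. With a mean of 1.01 TPM, Tbx3os1 lay among the tested genes up to 2.01 TPM, of which 26.3% were called higher.

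Of the 5 tested neighbours of Crybg2, only Lin28a, an RNA-binding protein of embryonic cells, was called higher (4.89, SE 0.65, edgeR adjusted p = 0.0193), on 2, 7 and 16 counts in AAV-VEGF-C and 1, 1 and 2 in AAV-CTRL. Lin28a was scarce, at 1.38 TPM or less in every library. Of all tested genes 10.5% were called higher, and of those with a mean up to 2.01 TPM, 26.3%. Nothing about the locus is therefore read from this call. Cd52, a leukocyte surface antigen encoded on the opposite strand, shares 172 exon bases with Crybg2. Reads in those bases could be split between the genes, since the use of strand in counting is not given in the sources used here, and Crybg2 is uncertain to that extent. Cd52 was counted 1, 26 and 26 times in AAV-VEGF-C and 1, 67 and 92 times in AAV-CTRL, so in AAV-VEGF-C 1 it held 1 count where Crybg2 held 1387. Ubxn11 (1.22), Cep85 (0.99) and Sh3bgrl3 (-0.44) were not called.

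Beside Hspb7, Zbtb17 (0.11) and Spen (-0.19) were not called. The neighbours of Rcan2, Cyp39a1 (-1.05) and Enpp5 (-0.99), were not called, and Enpp5 was counted 5, 17 and 44 times in AAV-VEGF-C and 150, 154 and 428 times in AAV-CTRL. Zfp683 beside Crybg2 and Fam131c and Srarp beside Hspb7 had only 12, 24 and 33 counts over the 6 libraries and were not tested. The small RNA gene Gm24532 inside Rcan2 had no count. No other gene within 50 kb had more counts in AAV-VEGF-C 1 than in AAV-VEGF-C 2 and 3. At these loci that order of unscaled counts was seen in the 4 genes alone, which were chosen in part for it. Of all tested genes, 0.842% had counts that fell at every step over AAV-VEGF-C 1, 2 and 3. Nothing about the loci is therefore read from this order. By TPM, Cep85 beside Crybg2 had the same order, at 40.9, 14.7 and 7.16 in AAV-VEGF-C 1, 2 and 3. In AAV-CTRL 1, 2 and 3 it stood at 5.24, 5.84 and 6.13 TPM. The unscaled counts of Cep85 were 29, 32.9 and 62.3 in AAV-VEGF-C and 78, 155 and 278 in AAV-CTRL. It was not called in edgeR (adjusted p = 0.259).

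**Figure D5:**
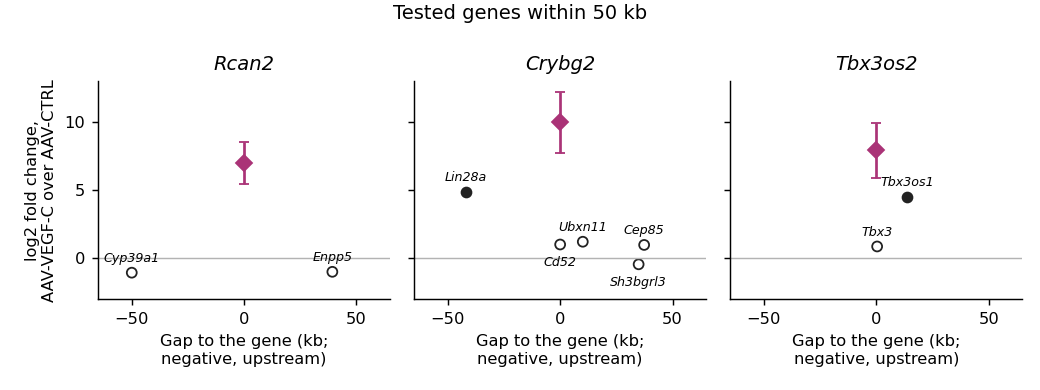
log2 fold change of Rcan2, Crybg2 and Tbx3os2 (diamonds, bars show the SE) and of the tested genes within 50 kb of each (circles, filled where the edgeR adjusted p was under 0.05), against the gap to the gene in kb on its own strand. Lin28a and Tbx3os1 are the filled circles, at 4.89 and 4.48, and Rcan2 has no filled neighbour.

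The ratio of count to TPM, set on genes with a single transcript, was used to estimate the length that the deposited TPM assume for a gene. For Crybg2 it was 2988, 2844 and 2854 bases in AAV-VEGF-C 1, 2 and 3, shorter than the longest transcript of 5578 bases. For Rcan2 it was 3015, 3099 and 2977 bases in AAV-VEGF-C and 3004, 2980 and 2507 in AAV-CTRL, near the 3 transcripts of 2914, 3226 and 3313 bases that end close to the end of the gene. For Tbx3os2 and Hspb7, each with 1 transcript, the estimate was 1336 to 1509 bases and 2996 to 3523 bases where the annotation gives 1345 and 2769, which shows the error of the estimate. The assigned mix of Rcan2 transcripts thus had much the same mean length in both groups outside AAV-CTRL 3.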

How the data were processed

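For the 6 libraries the authors deposited unscaled estimated counts of each gene and TPM values. The submitters' processing notes name FastQC, Trimmomatic, DRAGEN and Picard and the build mm10; versions, strand setting and use of molecular identifiers are not given in the sources used here. Positions were taken from GENCODE M21, which holds 98.1% of the identifiers with their version. Estimated counts were rounded, filtered with filterByExpr, scaled by TMM and fitted by edgeR's quasi-likelihood test (4.0.16, R 4.3.3) with Benjamini-Hochberg adjustment at 0.05 over all tested genes. DESeq2 (1.42.0, the study's tool) and limma (3.58.1, on log2 TPM with pseudocounts of 1 and 0.1) were alternatives. The edgeR procedure was tested on simulated counts with planted changes and the same spread between libraries for every gene. That spread was set by hand and not taken from these libraries. The simulation therefore does not bear on the shares of genes called here.

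The 4 genes, the family and marker lists and the neighbour rule were chosen with earlier results of these data known. Named relatives are those called and the 3 with the highest mean TPM in each list, with further list genes named after their values were seen. Intervals are 95% Wilson intervals for counting error, and 3 counts were the floor. Each library pools animals of a separate experiment. The labels tie replicate numbers to the repeat. Across genes the residuals of libraries with the same number, after subtracting each group mean, correlated at 0.33, 0.22 and 0.16. AAV-CTRL 3 correlated more with AAV-VEGF-C 2 (0.19) than with AAV-VEGF-C 3. Pairs of a library 1 with a library 2 or 3 lay between -0.34 and -0.17. The residuals thus set experiment 1 apart, and the pairing within experiments 2 and 3 rests on the labels. Promoters came from RefSeq (GRCm38.p6), where all 4 genes matched. A few listed and neighbouring genes are not reported here.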

Additional observations from a re-analysis of the deposited data

How the results depend on the processing

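The log2 fold changes of the 4 genes stayed positive under every alternative that could be fitted. This sign was largely fixed in advance. The genes were chosen for these rises, and their CPM in every AAV-VEGF-C library exceeded that in every AAV-CTRL library. Only the size of the values is therefore described here. On log2(TPM + 1) in limma they were 4.82 for Crybg2, 3.12 for Hspb7 and 2.62 for Tbx3os2, and with a pseudocount of 0.1 they were 6.73, 4.69 and 4.73; Rcan2 gave 5.05 and 5.14. Leaving out 1 library gave 5.06 to 7.77 for Rcan2, 6.99 to 11.27 for Crybg2, 5.55 to 8.40 for Hspb7 and 4.33 to 10.21 for Tbx3os2, lowest without AAV-VEGF-C 1. With the experiment number as a replicate block they were 6.32, 9.34, 6.51 and 7.52 for Rcan2, Crybg2, Hspb7 and Tbx3os2. Drawn down to the smallest total, Rcan2 gave 7.65 and Crybg2 11.02, and Hspb7 and Tbx3os2 did not pass the filter.

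The number of genes called depended heavily on the setting. In place of 1835 higher and 115 lower, it was 9382 and 1175 with no filter, 9 and 0 for genes averaging 5 TPM or more (edgeR, 1009 at an unadjusted p under 0.05), 5659 and 501 in DESeq2, 1112 and 434 in limma on log2(TPM + 1), and 16 and 0 after drawing down (edgeR, 834 at an unadjusted p under 0.05). The lower calls were 53 with library totals alone, 8 with TMM computed from the 2000 most abundant genes and 362 with the replicate block. Leaving out 1 library gave 0 to 1771 higher and 0 to 48 lower; edgeR gave 0 calls without AAV-CTRL 2 (5071 at an unadjusted p under 0.05) and without AAV-CTRL 3 (4627), while 8 and 320 were higher without AAV-VEGF-C 2 and 3.

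For the T-box list, 9 higher became 0 among genes averaging 5 TPM or more, 5 in limma on log2(TPM + 1) and 6 in limma on log2(TPM + 0.1). It became 0 after drawing down, 12 with no filter, 11 in DESeq2 and 0 to 5 when 1 library was left out. In this list 1 gene was lower with no filter, in DESeq2 and with the replicate block. With no filter, 5 crystallins were higher, 1 heat shock gene higher and 3 lower, and 1 calcineurin gene higher and 2 lower. DESeq2 called 1 heat shock gene higher and 1 lower and 1 calcineurin gene higher and 2 lower. Limma on log2(TPM + 1) called 2 heat shock genes lower, and TMM from those 2000 genes called 1 calcineurin gene higher. The replicate block changed no other count of calls in these lists. The cause of these changes was not tested. Depth limits Crybg2, Hspb7 and Tbx3os2 in AAV-CTRL, where they had at most 17, 13 and 7 counts in a library.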
